A study of Mus musculus with 4 samples.

Results

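The collagen genes outside Col4a1 and Col4a2 comprise 42 of the 21887 protein-coding mouse genes in the mm10 gene table. They were taken by symbol, as every gene named Col, a number, a, and a number, without those 2 genes. Around each gene, the span plus 20 kb on either side was searched for accessible regions, and 403 of the 170898 regions found in the genome overlapped such a window. Of these, 247 lay inside a collagen gene span and 12 lay in the windows of 2 neighbouring members.

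Open chromatin was profiled with ATAC-seq, which reads the sites where a transposase can insert adapters into DNA, in 2TS22C cells, a mouse embryonic stem cell line grown in 2i serum/LIF medium. The SOX17FNV group carried a lentivirus for SOX17FNV, a variant of the endoderm factor SOX17 whose changes the labels do not spell out, and the SOX2 group carried a lentivirus for SOX2, a factor of pluripotency. Per the labels, endogenous SOX2 was silenced and DOX was given in both groups, so no group kept its own Sox2 or went without DOX. Peak lists hold no expression values, so the silencing itself was not checked here. Each group had 2 libraries, labelled biological replicates. The labels do not say whether these came from separately derived lines, so no p-value here reaches beyond these libraries.

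Collagens are the main fibrous proteins of the extracellular matrix. Their alpha chains wind around each other into a rope-like helix inside the endoplasmic reticulum and are then secreted, trimmed and cross-linked. Fibrillar collagens bear load in bone, tendon, skin and cartilage, network-forming collagens build sheets such as basement membranes, type VI collagens form beaded filaments around cells, and fibril-associated collagens (FACITs) sit on the surface of fibrils. Transmembrane collagens anchor in the plasma membrane, and multiplexins are basement membrane collagens. Pluripotent cells make little of the matrix of connective tissue, and most of these genes are known for their work in mesenchyme, cartilage or epithelia.

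The lists held 120341 and 92851 peaks in the SOX17FNV libraries (replicates 1 and 2), against 123214 and 96500 in the SOX2 libraries. The deposited files give no read totals, and the background pileup solved from the peak values, which grows with depth, was 3.91 and 3.27 in SOX17FNV against 4.17 and 5.02 in SOX2. SOX2 replicate 2 thus had the highest background but one of the shorter lists, and its weakest called summit needed a pileup of 13, against 10 in SOX17FNV replicate 2. Chromatin near either end of all 8 embryonic stem cell marker genes examined was called in every library. Of 12 fibroblast markers, 8 and 6 had a called gene end in SOX17FNV against 7 and 7 in SOX2, with Fap, Postn, Dcn and Lum called in no library. Of 9 primitive endoderm markers, 7 were called in every library, and Gata4 and Dab2 in none. Of 5 cartilage markers, 3 were called in every library, and Matn1 and Runx2 in none. Among all protein-coding genes, 64.7% had an end called in all 4 libraries and 26.5% in none. The marker lists are short and were not tested against these shares. The part of other cell types in the results was not tested. In a bulk library, fewer cells with an open site and less opening per cell cannot be told apart.

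Start sites of collagen genes split into open and closed promoters, and the letters of the promoters differed with this split. A start was counted as open in a library when that library called a region within 1 kb of a start site in the RefSeq promoter table, which holds 33 of the 42 members. The promoters shown here are each the 250 bases before the start on the gene's own strand (RefSeq, GRCm38.p6). They are those of 3 genes whose start was called in all 4 libraries, and of Col3a1, called in none. Col5a1 had the strongest such start of the fibrillar genes, and Col6a2 and Col8a1 the only ones of their classes. The strongest starts of the FACIT (Col16a1), transmembrane (Col23a1) and multiplexin (Col18a1) genes are not printed. Col3a1, with the lowest G+C of the closed promoters, was picked for contrast after its values were seen. Capitals mark, on either strand, GGGCGG (the GC box), CCAAT (the CCAAT box), CATTGT (a SOX core), ATGCAAA (part of the octamer) and TATAAA (the TATA box).
Col5a1, chr2:27886175-27886424, + strand, called in all 4 libraries: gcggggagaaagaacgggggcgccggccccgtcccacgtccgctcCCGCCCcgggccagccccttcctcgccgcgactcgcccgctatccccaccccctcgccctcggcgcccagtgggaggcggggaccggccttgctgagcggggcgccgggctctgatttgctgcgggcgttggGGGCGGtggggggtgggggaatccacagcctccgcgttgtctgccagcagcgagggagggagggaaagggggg
Col6a2, chr10:76623405-76623654, - strand, called in all 4 libraries: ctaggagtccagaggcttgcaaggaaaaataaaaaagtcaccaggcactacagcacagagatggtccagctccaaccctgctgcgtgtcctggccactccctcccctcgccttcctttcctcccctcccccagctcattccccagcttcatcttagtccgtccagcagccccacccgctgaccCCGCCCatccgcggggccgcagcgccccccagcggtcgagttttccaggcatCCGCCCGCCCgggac
Col8a1, chr16:57754738-57754987, - strand, called in all 4 libraries: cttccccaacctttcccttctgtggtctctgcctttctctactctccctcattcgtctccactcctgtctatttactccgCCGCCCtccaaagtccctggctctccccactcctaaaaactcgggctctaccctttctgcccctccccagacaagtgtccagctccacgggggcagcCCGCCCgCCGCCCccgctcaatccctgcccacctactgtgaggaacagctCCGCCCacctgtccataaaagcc
Col3a1, chr1:45311288-45311537, + strand, called in no library: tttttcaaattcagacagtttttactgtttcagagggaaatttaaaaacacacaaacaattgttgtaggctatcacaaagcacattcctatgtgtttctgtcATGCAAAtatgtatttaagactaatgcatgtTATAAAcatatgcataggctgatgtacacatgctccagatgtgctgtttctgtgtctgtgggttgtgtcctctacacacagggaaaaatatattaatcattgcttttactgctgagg

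The Col5a1 window held 28 CpG dinucleotides at 76.4% G+C and 2 GC boxes. The Col3a1 window held 0 CpGs at 35.2% G+C, with 1 TATA box and 1 octamer part. The windows of Col6a2 and Col8a1 held 3 and 4 GC boxes, of which 2 overlap in Col6a2, and 14 and 10 CpGs. The same split ran through the members. Here each start site was judged by its own calls, since some genes have more than 1. The 16 promoter windows called in all 4 libraries (15 genes) had a median of 13 CpGs (range 3 to 28) and 62% G+C. The 11 windows called in none (10 genes, with a start of Col18a1 besides its open one) had a median of 3 CpGs (range 0 to 5) and 47.6% G+C, and the 9 windows called in 1 to 3 libraries had a median of 10 CpGs and 58.8% G+C. Over the 21263 windows of protein-coding genes the medians were 10 CpGs and 55.6% G+C. These pool open and closed promoters, so whether the split differs between collagen genes and other genes was not tested. A GC box stood in 12 of the 16 open windows and 2 of the 11 closed ones, where 42.6% of all protein-coding windows hold one. TATAAA stood in 1 of the 16 and 3 of the 11, against 11.6% of all windows, and CCAAT in 6 and 3, against 35.4%. The SOX core CATTGT stood in 0 of the 16 and 1 of the 11 windows (Col28a1), against 9.35% of all windows, and ATGCAAA in 3 and 1, against 3.86%. These are letter matches in a short window and say nothing of binding.

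The number of collagen start sites called was 22 and 18 in the SOX17FNV libraries, against 22 and 20 in the SOX2 libraries. The groups overlapped (exact permutation test over the 4 libraries, two-sided, p = 1, where 0.333 is the smallest p this design can give). Starts of 15 members (45.5%) were called in all 4 libraries, against 64.3% of protein-coding genes, and 9 members (27.3%) were called in none, against 28.3%. The 9 were Col3a1, the fibrillar collagen of vessels and skin, Col4a6 of basement membranes, the type VI genes Col6a1, Col6a3 and Col6a4, Col9a1 of cartilage fibrils, Col10a1 of hypertrophic cartilage, the hemidesmosome collagen Col17a1, and Col28a1. With either gene end counted, which takes in all 42 members, 29 and 23 were called in SOX17FNV against 30 and 26 in SOX2. By that count 21 members (50%) were called in all 4 libraries against 64.7% of protein-coding genes, and 12 (28.6%) in none against 26.5%.

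The start sites that were called in every library were weak next to other genes. Summit pileups, the number of fragments stacked at the highest point as solved from the deposited values, were scaled to the median of the regions that all 4 libraries called. On that scale, in log2 and averaged over libraries, the 15 collagen starts had a median level of -0.12 (0.919 times the library median), from -1.17 in Col24a1 to 0.59 in Col5a1. The 11193 protein-coding genes with such a start had a median level of 0.67 (1.60 times), and 0 of the 15 collagen starts reached it. Col5a1, whose chain helps set fibril diameter, had start pileups of 39 and 42 in SOX17FNV against 49 and 50 in SOX2. The transmembrane genes Col23a1 and Col13a1 followed. Col23a1 had 47 and 27 in SOX17FNV against 53 and 42 in SOX2, and Col13a1 had 54 and 28 against 54 and 34. Col18a1, the source of the fragment endostatin, had 53 and 32 in SOX17FNV against 46 and 35 in SOX2. These neighbours in the order lay within the spread of each other's libraries. At the low end stood Col1a2, one of the chains of type I collagen, with 14 and 10 in SOX17FNV against 20 and 16 in SOX2, and Col24a1 with 13 and 12 against 15 and 13. The Col24a1 pileups lie within 3 fragments of the weakest summit of each list. None of the 15 starts passed the test between groups (limma, described with the shared regions), and the largest difference was that of Col1a2 (-0.44 ± 0.29 SE in log2, limma adjusted p = 0.543).

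**Figure D1:**
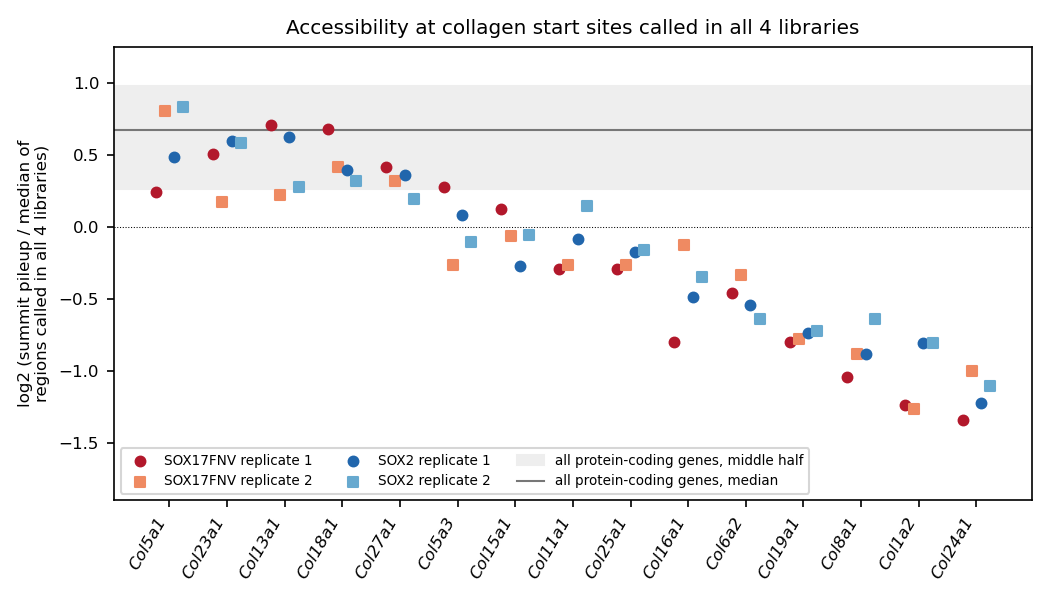
Summit pileup at the start sites of the 15 collagen genes called in all 4 libraries, as log2 of the ratio to the library's median over regions called in all 4 libraries, 1 point per library, ordered by mean level. The line and band give the median (0.67) and the interquartile range of the 11193 protein-coding starts; all 15 gene means lie below the line, from 0.59 in Col5a1 to -1.17 in Col24a1.

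Starts called in some libraries did not follow the groups. Col4a5, a basement membrane chain, had a start pileup of 17 in SOX17FNV replicate 1, no call in SOX17FNV replicate 2, and 21 and 16 in SOX2. Its single region is also the only one in the window of Col4a6, which lies head to head with it on the X chromosome. Col4a4 and Col11a2 likewise lacked a call only in SOX17FNV replicate 2, which has the shortest list, and Col9a2 only in SOX17FNV replicate 1. Col6a6 and Col8a2 lacked one only in SOX2 replicate 2. Col7a1, the collagen of the anchoring fibrils of skin, was called at its start in replicate 1 of each group, with pileups of 24 in SOX17FNV and 21 in SOX2. Col6a5 was called at its start only in SOX17FNV replicate 1 (pileups 12 and 11 in 2 small regions), and Col20a1 only in SOX2 replicate 2 (pileup 19).

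Across whole gene windows, collagen genes held about as many regions as other genes, in longer windows. Their shares of common and group-specific regions were near those of other genes. A member had 1 region (Col4a5 and Col4a6) to 31 (Col13a1), with a median of 8.5 against 8 for all protein-coding genes. The median window was 150 kb long against 57.2 kb for all protein-coding genes, and the median density was 6.48 regions per 100 kb against 12.3. Density was not compared among genes of matched window length. All 4 libraries called 126 of the 403 regions (31.3%), against 35.4% in the windows of all protein-coding genes. These fell to 39 members, all but Col4a5, Col4a6 and Col6a3. A further 137 (34.0%) were called in a single library, close to the 34.4% of all genes. Both SOX17FNV libraries and neither SOX2 library called 16 regions (3.97%, background 2.91%), termed SOX17FNV-only. The reverse pattern, SOX2-only, held for 15 regions (3.72%, background 3.72%). The background shares are those of the windows of all protein-coding genes.

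**Figure D2:**
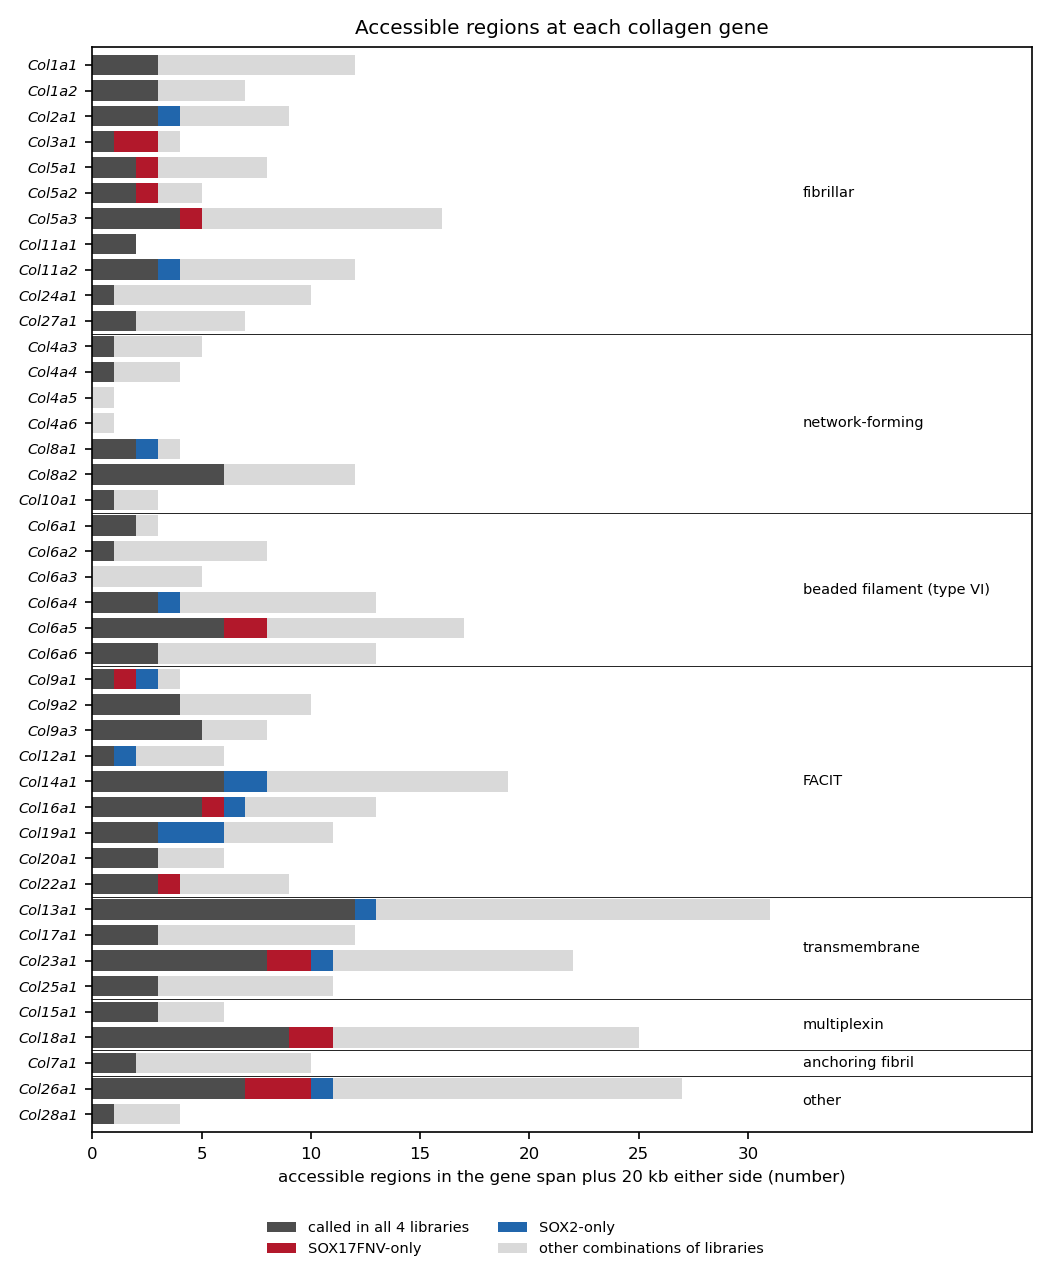
Number of accessible regions in the span plus 20 kb on either side of each of the 42 collagen genes, by structural class; dark grey, called in all 4 libraries (126 in all); red, SOX17FNV-only (16); blue, SOX2-only (15); light grey, other combinations. A region in the windows of 2 neighbours is drawn for both. Col13a1 (31), Col26a1 (27) and Col18a1 (25) held the most regions, and 23 genes had no red or blue part.

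The share of each library's peaks that fell in collagen windows was 0.246% and 0.250% in SOX17FNV (296 and 232 peaks), against 0.229% and 0.229% in SOX2 (282 and 221 peaks). The means were 0.248% ± 0.00275 in SOX17FNV and 0.229% ± 0.000103 in SOX2 (SD, n = 2 each), without overlap (exact permutation test, two-sided, p = 0.333, the smallest this design allows). With the peaks held to a -log10 q of at least 5, the shares were 0.236% and 0.232% in SOX17FNV against 0.224% and 0.188% in SOX2.

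Group-specific regions at the collagen genes lay away from listed start sites, as most did at all genes. Of the 31, 0 lay within 1 kb of any start site in the promoter table, which holds 33 of the 42 members. Of the 126 shared regions, 36 did (28.6%), 16 of them at collagen starts and 20 at the starts of other genes. In the windows of all protein-coding genes, 3.87% of SOX17FNV-only and 5.55% of SOX2-only regions lay at a start, against 26.9% of shared ones. The SOX17FNV-only regions lay inside a collagen span in 11 cases and outside in 5, the SOX2-only ones in 7 and 8. They were narrower than shared regions, as group-specific regions were at all genes. Their called pileups ran from 11 to 34 in the SOX17FNV-only and from 12 to 42 in the SOX2-only regions, with median widths of 394.5 bp and 342 bp, against 887.5 bp for shared regions. In the windows of all protein-coding genes these widths were 382, 420 and 850 bp. The SOX17FNV-only regions stood at median percentiles of 49.8 and 41.4 in the SOX17FNV lists, and the SOX2-only regions at 23.9 and 14.0 in the SOX2 lists. These percentiles were not compared with those of group-specific regions at all genes. The SOX17FNV-only regions reached a -log10 q of 5 in both libraries in 2 of 16 cases, in the windows of Col6a5 and Col9a1, against 9.01% of all SOX17FNV-only regions in gene windows. The SOX2-only regions did so in 0 of 15, against 10.2%.

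By gene, 11 members had a SOX17FNV-only and 12 a SOX2-only region, 4 of them both (Col9a1, Col16a1, Col23a1 and Col26a1). Among the 89 regions of the fibrillar genes, 4 were SOX17FNV-only and 2 SOX2-only. In this class Col3a1 had 2 SOX17FNV-only regions, Col5a1, Col5a2 and Col5a3 had 1 each, and Col2a1 and Col11a2 had 1 SOX2-only region each. The network-forming genes had 0 and 1 among 28 (Col8a1, SOX2-only). The type VI genes had 2 and 1 among 53, both SOX17FNV-only regions in Col6a5 and the SOX2-only one near Col6a4. Among the 85 regions of the FACITs, 3 were SOX17FNV-only and 8 SOX2-only. Here Col9a1 and Col16a1 had 1 of each kind, Col22a1 had 1 SOX17FNV-only region, and the SOX2-only ones included 3 of Col19a1, 2 of Col14a1 and 1 of Col12a1. The transmembrane genes had 2 and 2 among 76, from Col23a1 with 2 SOX17FNV-only and 1 SOX2-only and Col13a1 with 1 SOX2-only region. The multiplexins had 2 and 0 among 31, both SOX17FNV-only in Col18a1, Col7a1 had 0 and 0 among 10, and Col26a1 and Col28a1 together had 3 and 1 among 31, all of them in Col26a1.

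Of the 5 genes with at least 2 group-specific regions on 1 side and none on the other, 3 had them in SOX17FNV. Col3a1 had one inside the gene, 2343 bp past its closed start (chr1:45313881-45314172), with pileups of 11 and 12 in SOX17FNV and no call in SOX2. Its other one lay 10060 bp past the far end of the gene and 14365 bp from Col5a2 (chr1:45359766-45359966), with 27 and 19 in SOX17FNV and no call in SOX2. It stands a short way beyond a strong region that all 4 libraries called (chr1:45357575-45358745), with 65 and 58 in SOX17FNV against 48 and 60 in SOX2. Col18a1 had one inside the gene (chr10:77146593-77147077, pileups 27 and 19 in SOX17FNV, no call in SOX2) and one 16258 bp upstream of its start (chr10:77182788-77183695, 23 and 29 in SOX17FNV, no call in SOX2). Col6a5 is described with the type VI genes.

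The other 2 of these genes, both FACITs, had theirs in SOX2. Col19a1 had 3 SOX2-only regions. Within the gene, chr1:24378390-24378668 had no call in SOX17FNV and pileups of 13 and 17 in SOX2, and chr1:24452497-24452794 had no call in SOX17FNV and 16 and 13 in SOX2. The third, 7476 bp outside the span (chr1:24595398-24595756), had no call in SOX17FNV and 13 and 19 in SOX2. Col14a1, whose protein spaces collagen fibrils, had 2 inside the gene, chr15:55387978-55388370 (no call in SOX17FNV, 14 and 13 in SOX2) and chr15:55489819-55490065 (no call in SOX17FNV, 16 and 16 in SOX2). The weakest summits that the SOX2 lists hold have pileups of 12 and 13. The absence of a call is not a pileup of 0, since the files hold no values below the threshold.

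In single regions, the highest group-specific pileups were those of a SOX2-only region 6806 bp outside the span of Col13a1 (no call in SOX17FNV, 42 and 29 in SOX2) and of the Col6a5 region. The Col13a1 call was weak by -log10 q, at 3.41 and 1.77 (percentiles 30.1 and 14.0 of the SOX2 lists). Col16a1 had a SOX17FNV-only region 4343 bp beyond its end with 29 and 30 in SOX17FNV (-log10 q of 2.35 and 5.20). It also had a SOX2-only one 1800 bp outside the other end with 15 and 19 in SOX2. Col26a1 had SOX17FNV-only pileups of 21 and 16, 17 and 11, and 20 and 17, each with no call in SOX2, and 16 and 22 in SOX2 at its SOX2-only region. The direction within such genes depends on which peaks are counted. With only peaks of a -log10 q of at least 5, the SOX17FNV-only minus SOX2-only count was 1 at Col13a1 (-1 with all peaks), 1 at Col14a1 (-2 with all peaks) and -1 at Col5a1 (1 with all peaks).

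The counts depended strongly on which libraries were used, at collagen genes as at other genes, since a group of 1 library makes the rule easier to meet. Without SOX17FNV replicate 2 the collagen windows held 72 SOX17FNV-only regions (18.7%, against 15.1% in the windows of all protein-coding genes) and 20 SOX2-only ones (5.18%, against 5.07%). Without SOX2 replicate 2 they held 20 (5.15%, against 4.48%) and 61 (15.7%, against 17.1%). Without SOX17FNV replicate 1 they held 36 (10.1%, against 8.82%) and 34 (9.58%, against 10.1%), and without SOX2 replicate 1 they held 55 (14.9%, against 9.61%) and 37 (10%, against 11.5%). With 1 library left out, the collagen shares of both kinds thus rose and fell with those of all genes. The widest gap was that of the SOX17FNV-only share without SOX2 replicate 1. With all lists held to the length of the shortest, 25 regions were SOX17FNV-only (7.44%, against 3.73% in all protein-coding windows) and 9 were SOX2-only (2.68%, against 3.94%). With a -log10 q of at least 5 there were 9 (4.55%, against 3.24%) and 1 (0.505%, against 2.84%).

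Among the regions called in all 4 libraries, the strength of the signal was compared with limma on the log2 relative pileup. It was fitted on all 57783 such regions of the genome, with Benjamini-Hochberg adjustment over them and a threshold of 0.05. limma draws the spread of each region towards the trend over all regions. An SE, interval or p-value from it is thus not the spread of that region's own libraries alone. Of the 126 collagen regions 4 passed, all higher in SOX17FNV (background 0.893%), and 0 were lower (background 1.23%). At an unadjusted p under 0.05, 12 were higher and 2 lower, against backgrounds of 7.46% and 6.07%. The libraries of the groups did not overlap in 33 higher regions (26.2%, background 24.1%) and 17 lower ones (13.5%, background 18.4%). The median difference was 0.06 in log2, against 0.04 over all 57783 regions.

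The 4 regions that passed lay at Col6a5, an alpha chain of type VI collagen, and Col22a1, a FACIT of tissue junctions. The first, inside Col6a5 at chr9:105857576-105858177, had pileups of 38 and 33 in SOX17FNV against 17 and 24 in SOX2. Its log2 difference was 0.96 ± 0.26 SE (95% interval 0.44 to 1.48, limma adjusted p = 0.0353). Once each library was scaled to its median, both SOX17FNV libraries lay above both SOX2 libraries here, and also at the other 3. Another inside Col6a5, at chr9:105884364-105885247, had 50 and 38 in SOX17FNV against 39 and 21 in SOX2 (0.76 ± 0.21 SE, limma adjusted p = 0.0472). Between Col6a5 and Col6a6, at chr9:105838288-105839606, the pileups were 57 and 40 in SOX17FNV against 36 and 30 in SOX2 (0.69 ± 0.19 SE, limma adjusted p = 0.0442). The region at Col22a1 lay 7427 bp outside its span, at chr15:72158406-72159012, with 33 and 34 in SOX17FNV against 22 and 18 in SOX2 (0.90 ± 0.25 SE, limma adjusted p = 0.0440).

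These calls stood near the threshold. With quantile normalization and with scaling to the regions within 5 Mb, 0 of the 126 passed, the log2 differences of the 4 staying at 0.65 to 0.90 and 0.65 to 0.92, with limma adjusted p of 0.113 to 0.150 and 0.0824 to 0.138. Over all 57783 shared regions, 0.8% passed with quantile normalization and 1.33% with that scaling, against 2.12% in the main fit. With 1 library left out, a lone library has to be assumed to vary like the other group, so only log2 differences are given. The log2 difference at chr9:105857576-105858177 was 0.50 without SOX2 replicate 1, and that at chr9:105884364-105885247 was 0.42 without SOX2 replicate 2.

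The type VI genes Col6a4, Col6a5 and Col6a6 lie side by side in 447 kb of chromosome 9, counted with their windows (chr9:105669417-106116828), and the differences of the called regions belonged to a run of the same sign. Of the 37 regions of this stretch, all 4 libraries called 9. Of these, 7 were higher in SOX17FNV without overlap (background 24.1%) and 0 lower (background 18.4%). The 3 regions of the stretch that passed the test are among the 7, so this count is no separate support for them. The median log2 difference of the 9 was 0.41. All 6 shared regions in the Col6a5 window were among the 7, but 3 of the 6 did not pass the test. These were chr9:105914933-105915947, with 57 and 38 in SOX17FNV against 43 and 31 in SOX2 (0.50, limma adjusted p = 0.183), chr9:105841282-105842171, with 41 and 32 against 40 and 23 (0.41, adjusted p = 0.418), and chr9:105971212-105972539, with 32 and 26 against 26 and 26 (0.30, adjusted p = 0.641). In raw pileups the groups overlap or tie at these 3 regions and at the called one at chr9:105884364-105885247, and they separate once each library is scaled to its own median.

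Within Col6a5, both SOX17FNV-only regions lie between the 2 shared regions that passed. At chr9:105877965-105879136 the pileups were 34 and 26 in SOX17FNV with no call in SOX2, which placed the region at percentiles 78.1 and 73.2 of those lists. At chr9:105876228-105876397 they were 24 and 19 in SOX17FNV, with no call in SOX2. The only SOX2-only region of the stretch lay 18938 bp outside Col6a4, at chr9:106115766-106116029, with no call in SOX17FNV and pileups of 16 and 13 in SOX2. At the Col6a4 end, 2 shared regions had log2 differences of -0.27 and -0.05 (limma adjusted p = 0.763 and 0.971). The pileup over all shared regions within 5 Mb of these genes was 1.03 times as high in SOX17FNV as in SOX2, and over all members this local ratio ran from 0.926 to 1.09. The start of Col6a5 itself was called only in SOX17FNV replicate 1, as given above, and that of Col6a4 in no library.

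**Figure D3:**
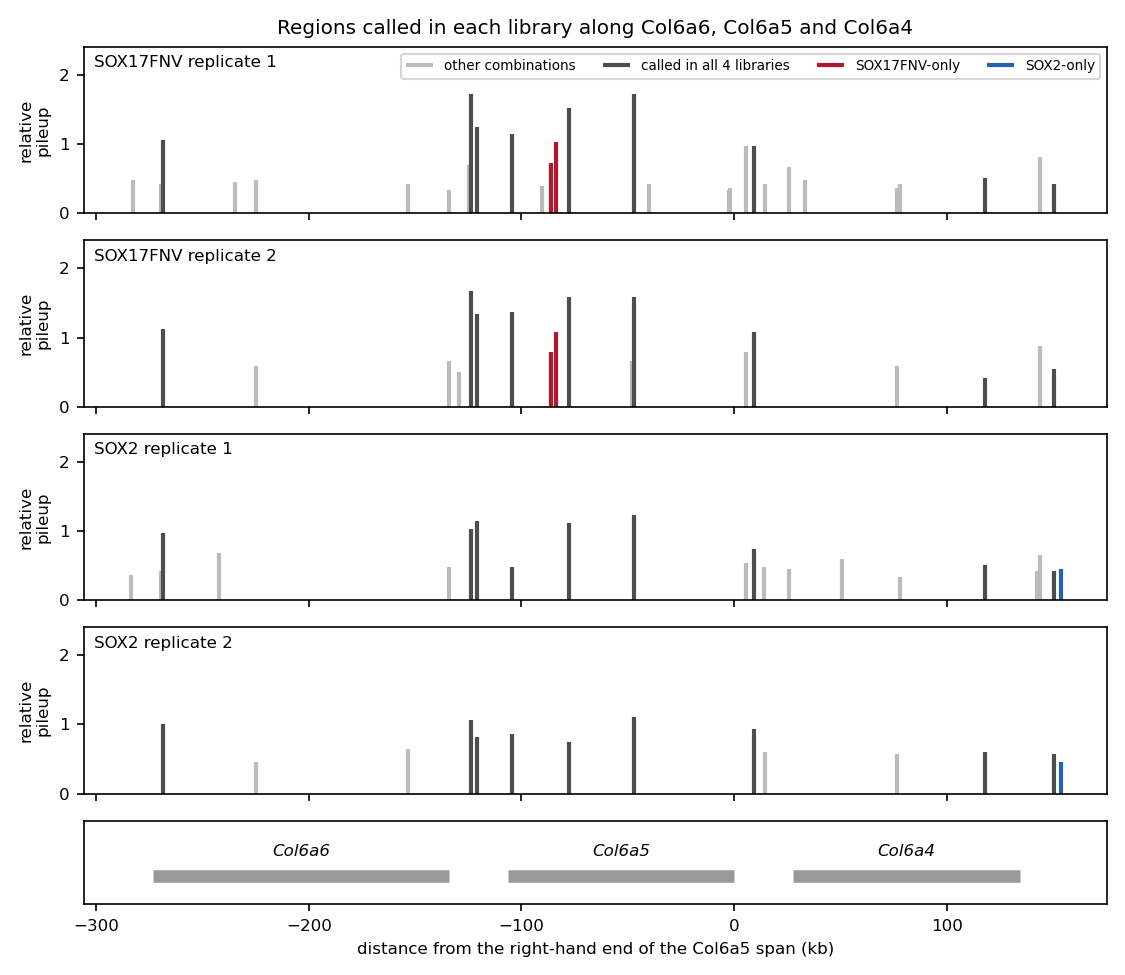
Regions called in each library along Col6a6, Col6a5 and Col6a4, as summit pileup divided by the library's median over regions called in all 4 libraries, against distance in kb from the right-hand end of the Col6a5 span; grey bars in the bottom panel are gene spans. A missing bar means no call, not a pileup of 0. The dark bars in the Col6a5 window are taller in both SOX17FNV panels than in both SOX2 panels, and the 2 red bars appear only in the SOX17FNV panels.

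By structural class, the median log2 difference of shared regions was 0.33 over the 12 regions of the type VI genes. Of these, 9 were higher in SOX17FNV without overlap and 0 lower. The stretch of Col6a4, Col6a5 and Col6a6 described above gave 9 of the 12 regions and 7 of those higher without overlap. The other type VI regions had log2 differences of 0.35 and -0.08 at Col6a1 and 0.19 at Col6a2. Over all 57783 shared regions, 24.1% were higher and 18.4% lower without overlap. Each class holds few regions, and class counts were not tested against these shares. The 12 regions of the multiplexins Col15a1 and Col18a1 had a median of 0.18, with 5 higher without overlap and 0 lower, and none passed the test. The largest difference lay 11522 bp upstream of the Col18a1 start (chr10:77178052-77179292), with 52 and 54 in SOX17FNV against 36 and 43 in SOX2 (0.58, limma adjusted p = 0.131). It stands between that start and the upstream SOX17FNV-only region. The fibrillar genes had a median of -0.01 over 25 regions (3 higher, 5 lower without overlap), the FACITs -0.03 over 30 (6 and 4), the transmembrane genes 0.02 over 26 (3 and 5), and the network-forming genes 0.08 over 11 (2 and 2). The 2 shared regions in the Col7a1 window lay at the starts of its neighbours Uqcrc1 and Pfkfb4, with differences of 0.47 and 0.38 (limma adjusted p = 0.158 and 0.295). The 8 regions of Col26a1 and Col28a1 had a median of 0.21 (3 and 1).

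**Figure D4:**
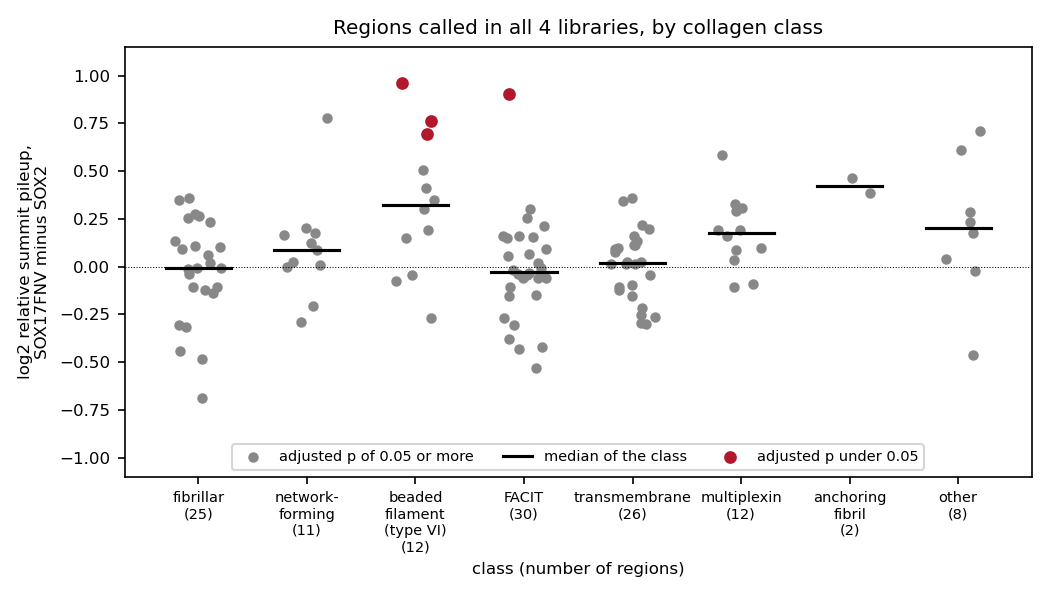
Log2 relative summit pileup, SOX17FNV minus SOX2, of each of the 126 collagen regions called in all 4 libraries, by structural class (number of regions under each name; bars, class medians; red, limma adjusted p under 0.05). The 4 red points are 3 type VI regions and 1 FACIT region, and the class medians run from -0.03 in the FACITs to 0.42 over the 2 regions of Col7a1, the anchoring fibril gene.

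Other large differences among shared regions did not pass the test. Col10a1 had a region 17017 bp upstream of its start, inside the gene Nt5dc1 (chr10:34372321-34372964), with 37 and 22 in SOX17FNV against 18 and 19 in SOX2 (0.78, limma adjusted p = 0.122). Col26a1 had one inside the gene at chr5:136779671-136780929, with 43 and 31 in SOX17FNV against 28 and 22 in SOX2 (0.71, adjusted p = 0.0885). In both, the SOX17FNV libraries lay above the SOX2 libraries. The lowest values came from Col5a1, at the start of Gm13372 within the gene (chr2:28031786-28032364), with 14 and 12 in SOX17FNV against 20 and 27 in SOX2 (-0.69, limma adjusted p = 0.263), and from Col9a2, a chain of the cartilage FACIT type IX (chr4:121042430-121043789), with 34 and 20 against 55 and 32 (-0.53, adjusted p = 0.240). Next came Col5a3 at chr9:20788124-20788629, with 20 and 15 in SOX17FNV against 33 and 22 in SOX2 (-0.48, limma adjusted p = 0.440), Col26a1 at chr5:136869934-136870440, with 17 and 10 against 20 and 20 (-0.46, adjusted p = 0.518), and the start of Col1a2. In all 5, the scaled SOX17FNV libraries lay below the SOX2 libraries without overlap.

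Several of the best-known members had shared regions whose differences did not pass the test. Col1a1, the main chain of bone and skin, had 3 shared regions with log2 differences of -0.12, 0.06 and 0.26, and its strongest, 4510 bp outside the span, had pileups of 55 and 48 in SOX17FNV against 64 and 47 in SOX2. Col2a1, the cartilage collagen and a textbook target of SOX9, had a shared region at one gene end with 30 and 23 in SOX17FNV against 36 and 24 in SOX2 (-0.01) and one inside the gene with 47 and 35 against 51 and 33 (0.14). Both regions of Col11a1, a cartilage fibril gene, were called in all 4 libraries, the one at its start with 27 and 20 in SOX17FNV against 33 and 31 in SOX2 (-0.31). The scaled groups did not overlap at that start (lower in SOX17FNV) or at the Col1a1 region of 0.26 (higher in SOX17FNV). None of these regions passed the test (limma adjusted p of 0.632 or more).

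The enzymes, proteases and receptors that work with collagens were counted in the same way. Modification and folding in the endoplasmic reticulum, 19 genes such as the prolyl hydroxylase gene P4ha1 and the collagen chaperone gene Serpinh1, had 176 regions, of which 71 were shared, 6 SOX17FNV-only (3.41%, background 2.91%) and 5 SOX2-only (2.84%, background 3.72%). Here 1 shared region passed as higher and 1 as lower, near the shares over all shared regions of the genome (0.893% higher and 1.23% lower). The higher one lies in the windows of the neighbours P3h4, which encodes a partner of collagen-modifying enzymes, and Fkbp10, a collagen chaperone gene (chr11:100425562-100426507), with 52 and 37 in SOX17FNV against 29 and 24 in SOX2 (0.89 ± 0.21 SE, limma adjusted p = 0.0132). The lower one lies in the window of Mia3, whose protein loads procollagen for export (chr1:183379458-183380490), with 14 and 13 in SOX17FNV against 35 and 38 in SOX2 (-1.28 ± 0.27 SE, limma adjusted p = 0.00562). Processing and cross-linking, 13 genes including Bmp1 and Lox, had 141 regions with 48 shared, 3 SOX17FNV-only (2.13%) and 4 SOX2-only (2.84%), and 0 passed. Collagen receptors, 10 genes including Itga1 and Ddr1, had 121 regions with 44 shared, 2 SOX17FNV-only (1.65%) and 4 SOX2-only (3.31%), and 0 passed. At an unadjusted p under 0.05, limma had 6 higher and 5 lower of the 71 modification regions, 0 and 3 of the 48 for processing and cross-linking, and 3 and 5 of the 44 for receptors, against backgrounds of 7.46% higher and 6.07% lower. Starts of 12 of 13 modification genes, 7 of 8 processing genes and 5 of 9 receptor genes in the promoter table were called in all 4 libraries, beside 15 of 33 collagen genes and 64.3% of protein-coding genes.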

How the data were processed

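The peak names of each deposited list carry a single library, so calls were made library by library. Per the submitters' processing notes, the authors used Bowtie2, SAMtools, MACS2 and the build mm10. No source used here gives versions, settings, filters or a read shift. Every line of the deposited lists has a score, a fold enrichment (the ratio of pileup to local background), and the -log10 of the p-value and q-value, as the authors' peak caller wrote them; the lowest -log10 q was 1.30 in every list. Depth is unknown beyond what these values give. From fold and p the whole-number summit pileup was solved, and it returned the deposited -log10 p within 0.001 for 100% of summits. Peaks of the 4 lists were merged into 1 set of regions wherever they shared a base.

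Gene spans came from the GRCm38.p6 table, and start sites and promoters from the RefSeq promoter table. Pileups were compared with limma 3.58.1 (R 4.3.3) on log2 values centred on each library's median, with an empirical Bayes trend, adjusted over all shared regions. On simulated data it recovered 69% of 2-fold and 100% of 4-fold changes and called 0.0191% of unchanged regions. Members and gene lists were chosen with earlier results of these data known. Named were members with a group-specific region, regions past the limma threshold, the 5 highest and 5 lowest differences and the strongest start of each class; others were chosen after their values were seen. Peak sequences were not used here.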

Additional observations from a re-analysis of the deposited data

How the results depend on the processing

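The SOX17FNV-only count at collagen genes (16) was 9 with a -log10 q of at least 5, 3 with at least 10, 25 with lists of equal length, 5 with the strongest 50000 peaks of each list, 27 with 50 kb either side, and 20 to 72 when 1 library was left out. The SOX2-only count (15) was 1, 0, 9, 1 and 27 under the same settings in that order, 7 in the gene spans alone, and 20 to 61 with 1 library left out. The regions called in all 4 libraries (126) numbered 59 and 26 at the higher q minimums, 64 with the strongest 50000 peaks, 72 in the spans alone, 217 with 50 kb, and 73 when a library's peaks had to cover at least 50% of a region. The collagen regions past limma's threshold (4) numbered 0 with quantile normalization and 0 with scaling within 5 Mb. They numbered 1 with a -log10 q of at least 5 in every library and 2 in the spans alone. Over all shared regions, 2.12% passed in the main fit, 0.8% with quantile normalization, 1.33% with that scaling and 1.84% at that q. With 1 library left out, a lone library is assumed to vary like the other group, so counts past the threshold are not given.

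With the replicate number as a block, 8 collagen regions passed, all higher in SOX17FNV, where 6.36% of all shared regions passed, against 2.12% without it. The labels do not say that a number marks anything shared. The check of pairing (r = 0.233 for deviations of same-numbered libraries) cannot decide it. With 2 libraries a group, r is equal for both numbers by construction. Replicate 1 had the longer list in both groups, with 120341 peaks in SOX17FNV and 123214 in SOX2, against 92851 and 96500 in replicate 2. Whether same-numbered libraries share anything was not tested further.

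Among single values, the mean number of collagen start sites called, SOX17FNV minus SOX2, was -1 and ran from -3 without SOX17FNV replicate 1 to 1 without SOX17FNV replicate 2. The SOX17FNV-only minus SOX2-only count turned at Col13a1 (1 with a -log10 q of at least 5, 2 with equal lists, -2 to 5 with 1 library left out), Col14a1 (1 with that q, -5 to 2), Col5a1 (-1 with that q), and, with 1 library left out, Col23a1 (down to -2), Col2a1 (up to 1) and Col5a3 (down to -2). The cause of these changes was not tested. The log2 differences of the 4 called regions stayed positive under every setting in which they were tested, the lowest being 0.42 at chr9:105884364-105885247 without SOX2 replicate 2; 2 of the 4 fell out of the test at a -log10 q of at least 5 in every library. The lists hold no summit with a pileup below 10 to 13, so weaker signal in a library without a call could not be seen.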
